A study of Rattus norvegicus with 8 samples.

Results

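Elastic fibre genes and the lysyl oxidases that cross-link their products were examined in rat sciatic nerve: Eln, Fbn1, Mfap4, Fbln1, Fbln2, Fbln5, Efemp2, Lox, Loxl1 and Loxl2. These 10 genes of 32545 in the deposited table were chosen by name, with the normalized read counts of the 3 groups in view. Levels and differences of the 10 genes are therefore a description without tests, and no p is given for them. All 10 symbols were found on 1 Ensembl identifier each, and 9 passed the filter on low counts, all but Mfap4.

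The groups were 3 PEG-fused PNAs (PEG), 3 negative control PNAs (NC) and 2 unoperated sciatic nerves (Unop), with 1 library per animal. A PNA is a peripheral nerve allograft, a length of sciatic nerve from a donor rat sutured into a host that was neither matched to the donor nor given immune suppression. Both kinds of PNA were placed by microsuture with hypotonic Plasmalyte A and methylene blue, and only PEG-fused PNAs also received polyethylene glycol, a polymer that fuses cut axon membranes. PNAs were excised at 14 days PO (post-operatively). The rats were outbred Sprague Dawley females 3 to 6 months old, and an excised PNA holds cells of both donor and host. In bulk tissue, fewer cells of a type and less RNA per cell cannot be told apart.

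Elastic fibres are built from a core of elastin laid on a scaffold of fibrillin microfibrils, and they give recoil to vessels, skin and the sheaths of nerves. Fibulins tether tropoelastin, the soluble precursor, to microfibrils and to the enzymes that cross-link it. Lysyl oxidases are secreted copper enzymes that oxidize lysines of elastin and fibrillar collagens, from which the covalent cross-links form.

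Sequence upstream of 2 of these genes is shown, because Loxl1 had the largest log2 fold change of the 9 over Unop in NC PNAs and with Loxl2 one of the largest in PEG-fused PNAs, and Fbln5 the lowest log2 fold change of the 9 in NC PNAs against Unop. The RefSeq promoter table (GRCr8, another build than that of the alignment) held 5 of the 10 genes. Only bases outside the annotated gene are printed, from 5′ to 3′ on the strand of the gene and ending at the base before it. Eln, Fbln1, Mfap4, Lox and Loxl2 were not in the table. Capitals mark motif matches. The Loxl1 stretch is chr8:67612225-67612474 (minus strand, 250 bases) and the Fbln5 stretch is the 100 bases at chr6:126742848-126742947 (minus strand). The Fbln5 stretch was capped at 100 bases by choice, and bases further upstream of it were not searched.
Loxl1: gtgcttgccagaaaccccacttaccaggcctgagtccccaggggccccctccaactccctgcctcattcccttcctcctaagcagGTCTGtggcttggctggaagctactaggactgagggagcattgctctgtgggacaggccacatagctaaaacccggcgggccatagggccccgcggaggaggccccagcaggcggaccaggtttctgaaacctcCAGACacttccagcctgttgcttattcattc
Fbln5: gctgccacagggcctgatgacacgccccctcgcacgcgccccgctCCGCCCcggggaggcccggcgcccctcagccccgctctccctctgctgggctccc

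The Fbln5 stretch was 80.0% G and C, and the Loxl1 stretch was 60.4%, where the median of all 33469 windows of the length of the latter was 51.2%. Both strands were searched for TATAAA (the TATA box), GGGCGG (the GC box), CCAAT (the box of that name), CAGAC (the SMAD box) and the CArG box by name. Loxl1 held CAGAC 2 times, 31 to 27 bases before the gene and, on the other strand, 165 to 161 bases before it. CAGAC stood in 42.9% of all windows of 250 bases. Fbln5 held GGGCGG 1 time, on the other strand 55 to 50 bases before the gene, a motif in 10.8% of all windows of 100 bases. The other letters searched were not in these stretches, and no match overlapped another. In windows of 250 bases the motifs absent from Loxl1 had shares of 12.9% for TATAAA, 30.5% for GGGCGG, 34.0% for CCAAT and 1.497% for the CArG box. In windows of 100 bases the motifs absent from Fbln5 had shares of 5.36% for TATAAA, 14.8% for CCAAT, 20.5% for CAGAC and 0.577% for the CArG box. A match is a description of the letters and not a bound site.

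The libraries held between 32472925 and 39959620 reads on genes. Values are normalized read counts, that is, reads divided by a size factor per library. The Schwann cell markers Sox10 and S100b were present in every library, with counts of Sox10 of 4257 and 3864 in Unop and of 1196 to 2686 in PNAs, and of S100b of 167369 and 153431 in Unop and of 4875 to 16606 in PNAs. Fibroblast markers (8 of 8 found, none at 0) summed to between 107368 and 128590 in PEG-fused PNAs, 57988 and 91031 in NC PNAs, and 48642 and 68669 in Unop, so the ranges of PEG-fused and NC PNAs did not overlap. Skeletal muscle markers (7 of 10 found) summed to 742751 in NC 1, 272443 in NC 3 and 12700 in NC 2, and to between 2995 and 40325 in the other 5 libraries. Muscle and connective tissue could cling to excised NC PNAs, by the study's methods. Smooth muscle and mural markers (6 of 6 found) summed to between 16354 and 19760 in PEG-fused PNAs, 9727 and 13405 in NC PNAs, and 39342 and 47401 in Unop. In this list, Tagln, Acta2, Myh11 and Cnn1 were lower in every PEG-fused PNA than in Unop, but Rgs5 and Notch3 were higher. Rgs5 had counts of 4698, 3711 and 4591 in PEG-fused PNAs and 2326 and 2542 in Unop, and Notch3 of 1008, 920 and 883 against 660 and 568. Perineurial markers (5 of 5 found, Lypd2 at 0 in every library) summed to 79027 and 91491 in Unop and to between 4303 and 7331 in PNAs, and adipocyte markers (4 of 4 found) to 28768 and 53066 in Unop and to between 273 and 1367 in PNAs. T cell markers (6 of 6 found) summed to between 6941 and 10041 in PEG-fused PNAs, 22550 and 37923 in NC PNAs, and 1715 and 2027 in Unop. The part of these cell types in the differences below was not tested beyond the values given.

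Elastin (Eln, ENSRNOG00000001469), the core protein of the fibre, had normalized read counts of 4086, 3561 and 5828 in PEG-fused PNAs, 1974, 1878 and 1405 in NC PNAs, and 4175 and 2659 in Unop nerves. Every PEG-fused PNA was above every NC PNA, every NC PNA was below both Unop nerves, and PEG-fused PNAs and Unop nerves overlapped. The mean was 4492 ± 1187 (PEG, SD, n = 3), 1752 ± 305 (NC, SD, n = 3) and 3417 ± 1072 (Unop, SD, n = 2). PEG-fused over NC PNAs gave a log2 fold change of 1.34 (SE 0.23), with a 95% interval of 0.81 to 1.87. NC PNAs lay 0.94 below Unop on the log2 scale (log2 fold change -0.94, SE 0.26). PEG-fused PNAs differed from Unop by a log2 fold change of 0.40, with an interval of -0.20 to 1.00 that spans no difference.

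Fibrillin-1 (Fbn1, ENSRNOG00000007302), the main structural protein of microfibrils, had counts of 30209, 48829 and 35612 in PEG-fused PNAs, 16408, 20798 and 24070 in NC PNAs, and 12662 and 10705 in Unop. The 3 groups stood in the order PEG, NC, Unop with no overlap between neighbours. The log2 fold change was 0.89 (SE 0.20) for PEG-fused over NC PNAs, 1.69 (SE 0.23) for PEG-fused PNAs over Unop and 0.79 (SE 0.23) for NC PNAs over Unop. Fbn1 thus differed from Eln in its place in NC PNAs, above Unop where Eln was below it.

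Mfap4 (ENSRNOG00000002382), a microfibril-associated glycoprotein, was near the limit of detection. Its reads before scaling were 3, 11 and 6 in PEG-fused PNAs, 3, 4 and 4 in NC PNAs, and 2 and 0 in Unop, where 0 allows up to 3 reads at this depth. It is left out of the fold changes below. Without the filter its log2 fold change was 0.53 (SE 0.56) for PEG-fused over NC PNAs, 1.89 (SE 0.63) for PEG-fused PNAs over Unop, which was past the DEG thresholds, and 1.36 (SE 0.63) for NC PNAs over Unop, values set by a few reads.

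**Figure D1:**
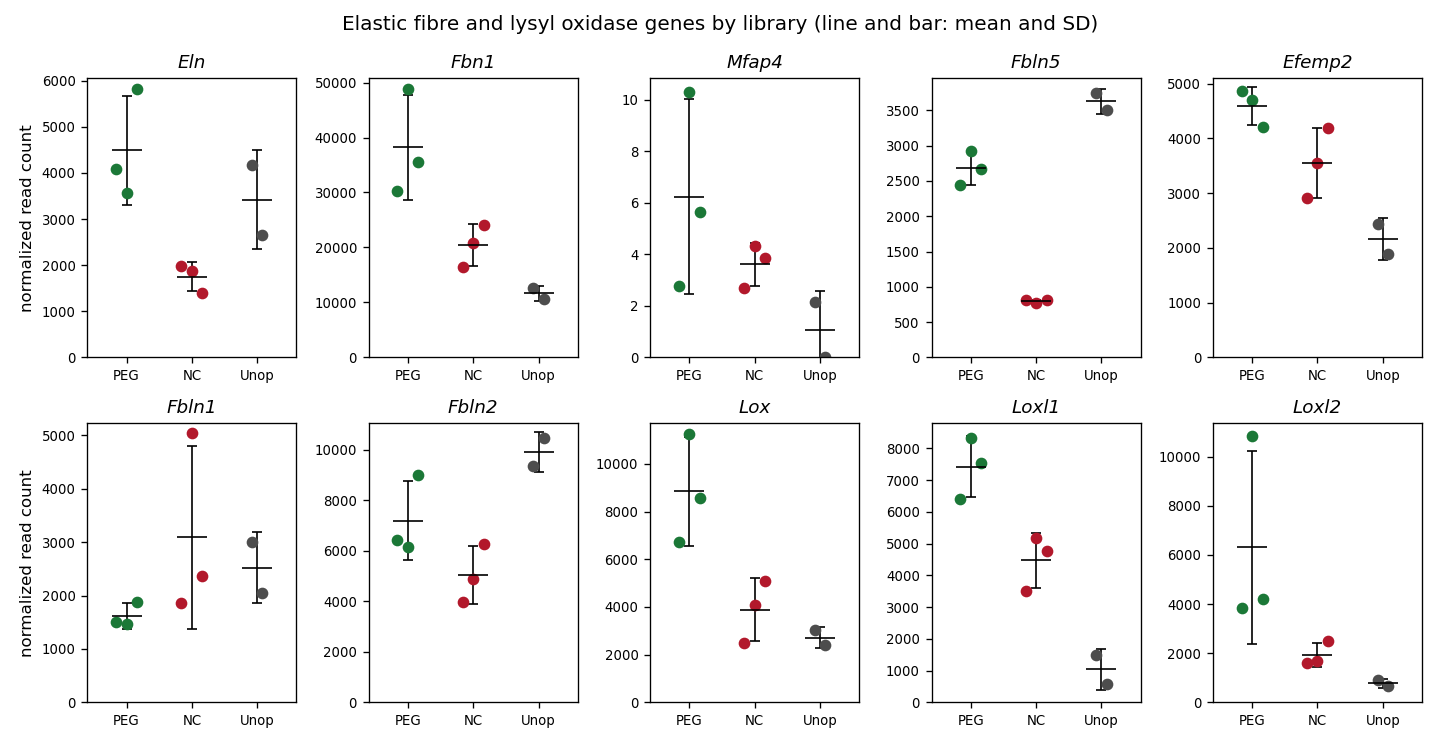
Normalized read count of each of the 10 genes (vertical axes, linear from 0, a scale per gene) in PEG-fused PNAs (PEG), NC PNAs (NC) and unoperated nerves (Unop). Points are libraries, and the horizontal line and bar are the mean and SD. Fbln5 in NC PNAs lies between 766 and 809, below every other library, while Loxl1 and Loxl2 are lowest in Unop and Mfap4 has at most 10.3 normalized counts.

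The fibulins did not share 1 pattern. Fbln5 (ENSRNOG00000050539), which binds tropoelastin, integrins and Loxl1, had counts of 2447, 2925 and 2676 in PEG-fused PNAs, 806, 766 and 809 in NC PNAs, and 3751 and 3505 in Unop. The 3 groups stood in the order Unop, PEG, NC with wide gaps and a narrow spread, and the coefficient of variation in NC PNAs was 3.04%. Fbln5 had the highest log2 fold change of the 9 genes in PEG-fused over NC PNAs, 1.75 (SE 0.09), and the lowest in NC PNAs against Unop, -2.19 (SE 0.10). In PEG-fused PNAs against Unop it was -0.44 (SE 0.10).

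Efemp2 (ENSRNOG00000020587), also called fibulin-4, which brings Lox to elastin, had counts of 4874, 4703 and 4212 in PEG-fused PNAs, 2921, 3546 and 4200 in NC PNAs, and 2434 and 1887 in Unop. It was ordered as Fbn1 was, PEG above NC above Unop, but PEG 3 (4212) and NC 3 (4200) were close together. Its log2 fold change was 0.38 (SE 0.15) in PEG-fused over NC PNAs, 1.10 (SE 0.17) in PEG-fused PNAs over Unop and 0.71 (SE 0.17) in NC PNAs over Unop. Fbln5 and Efemp2, close relatives with separate roles in assembly, thus lay on opposite sides of Unop in both kinds of PNA. Within libraries, the count of Fbln5 divided by that of Efemp2 was 1.70 ± 0.22 (Unop, SD, n = 2), 0.586 ± 0.073 (PEG, SD, n = 3) and 0.228 ± 0.043 (NC, SD, n = 3), with no overlap between groups.

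Fbln2 (ENSRNOG00000007338), a fibulin of basement membranes and vessel walls, had counts of 6421, 6167 and 9003 in PEG-fused PNAs, 3978, 4886 and 6275 in NC PNAs, and 9365 and 10476 in Unop. PEG-fused and NC PNAs overlapped, and both lay below Unop. Its log2 fold change was 0.52 (SE 0.19) in PEG-fused over NC PNAs, -0.48 (SE 0.22) in PEG-fused PNAs against Unop and -0.998 (SE 0.22) in NC PNAs against Unop.

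Fbln1 (ENSRNOG00000014137), which binds elastin, fibronectin and basement membrane proteins, was the 1 gene of the 9 with a lower mean in PEG-fused than in NC PNAs. Its counts were 1502, 1457 and 1886 in PEG-fused PNAs, 1857, 5040 and 2368 in NC PNAs, and 2996 and 2052 in Unop. NC 2 was far above the other NC PNAs, and NC 1 lay below PEG 3, so the groups overlapped. The log2 fold change of PEG-fused over NC PNAs stood at -0.81 (SE 0.34), and it ranged between -1.11 and -0.39 as each library was left out. With NC 1 and NC 3, the libraries with the most skeletal muscle marker counts, both left out, it was -1.65 and rested on NC 2 alone.

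Lox (ENSRNOG00000014426), the founding lysyl oxidase, had counts of 6712, 11248 and 8574 in PEG-fused PNAs, 2478, 4061 and 5107 in NC PNAs, and 3031 and 2404 in Unop. PEG-fused PNAs were above every other library, and NC PNAs and Unop overlapped. The log2 fold change was 1.22 (SE 0.28) in PEG-fused over NC PNAs, 1.68 (SE 0.31) in PEG-fused PNAs over Unop and 0.46 (SE 0.31) in NC PNAs over Unop, the last with an interval of -0.25 to 1.17.

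Loxl1 (ENSRNOG00000008680), the lysyl oxidase most tied to the upkeep of elastin, had counts of 6417, 8321 and 7550 in PEG-fused PNAs, 3508, 5163 and 4754 in NC PNAs, and 1498 and 578 in Unop. The groups stood in the order PEG, NC, Unop with no overlap. Its log2 fold change was 2.99 (SE 0.35) in PEG-fused PNAs over Unop and 2.25 (SE 0.35) in NC PNAs over Unop, beside 0.74 (SE 0.32) between the 2 kinds of PNA. The 2 Unop nerves differed by 2.59 times, and the value for PEG-fused PNAs was 3.67 without Unop 1 and 2.30 without Unop 2.

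Loxl2 (ENSRNOG00000016758), known for cross-linking collagen IV of basement membranes, had counts of 3846, 10837 and 4223 in PEG-fused PNAs, 1597, 1667 and 2506 in NC PNAs, and 894 and 653 in Unop. The same order held with no overlap, and PEG 2 was far above the other PEG-fused PNAs. Log2 fold changes were 1.57 (SE 0.38) in PEG-fused over NC PNAs, 2.87 (SE 0.42) in PEG-fused PNAs over Unop and 1.30 (SE 0.42) in NC PNAs over Unop. Without PEG 2, the first of these was 1.10.

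The family holds 2 more genes. Loxl3 had a mean of 944 ± 75 (PEG, SD, n = 3), 640 ± 86 (NC, SD, n = 3) and 708 ± 26 (Unop, SD, n = 2), with log2 fold changes within 0.56 of 0 and no DEG call. Loxl4 had a mean of 297 ± 176 (PEG, SD, n = 3), 214 ± 54 (NC, SD, n = 3) and 110 ± 2.9 (Unop, SD, n = 2), and rose in PEG-fused PNAs over Unop (log2 fold change 1.28, adjusted p = 0.0262 by limma). This call rested on PEG 2, without which the log2 fold change was 0.82, and on the pair of Unop nerves, since it was also lost without either of them (adjusted p = 0.0915 and 0.101).

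The 5 lysyl oxidase genes together had a mean of 23816 ± 7232 (PEG, SD, n = 3), 11135 ± 2570 (NC, SD, n = 3) and 5347 ± 1293 (Unop, SD, n = 2). Their shares of this sum were compared between libraries, not between genes, since counts were not divided by gene length. The share of Lox averaged 51.3% ± 4.1 (Unop, SD, n = 2), 37.4% ± 2.4 (PEG, SD, n = 3) and 34.2% ± 4.2 (NC, SD, n = 3). That of Loxl1 averaged 18.5% ± 7.7 (Unop, SD, n = 2), 32.3% ± 5.4 (PEG, SD, n = 3) and 40.6% ± 4.5 (NC, SD, n = 3). The 2 kinds of PNA overlapped in the share of Lox, and in that of Loxl1 only by the close values of PEG 1 and NC 3, both 35.5%. Both shares stood apart from Unop in every PNA.

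**Figure D2:**
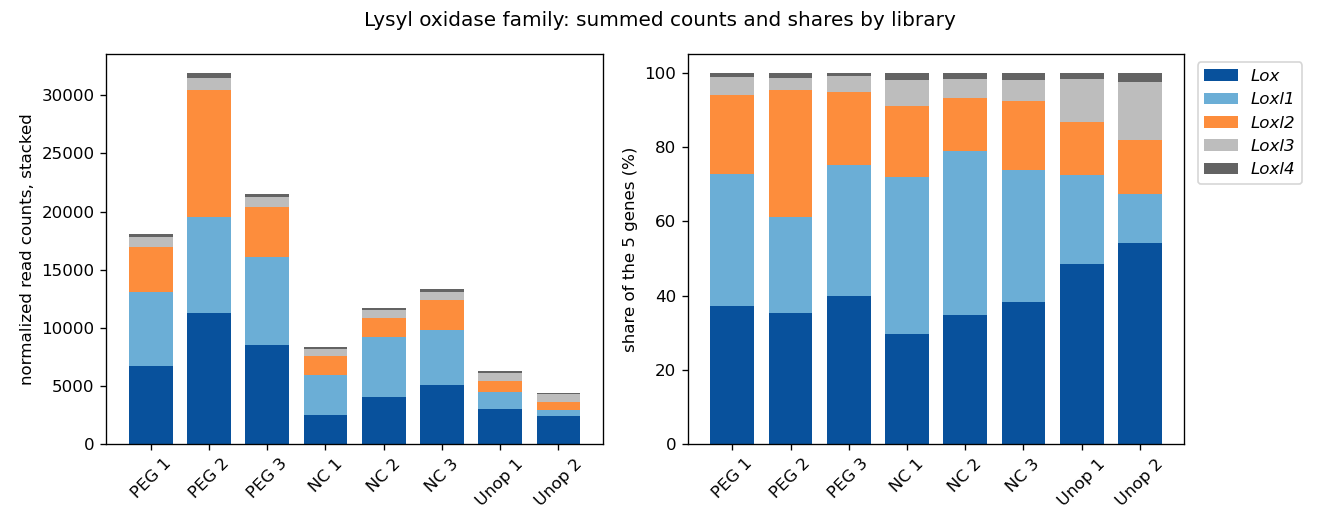
Normalized read counts of Lox, Loxl1, Loxl2, Loxl3 and Loxl4 stacked by library (left axis, counts) and as shares of their sum (right axis, percent). The sum is between 18055 and 31933 in PEG-fused PNAs, 8332 and 13380 in NC PNAs, and 4433 and 6261 in Unop, and Loxl2 takes 33.9% of it in PEG 2.

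Counts past the DEG thresholds (adjusted p under 0.05 by limma and a log2 fold change above 1 or below -1) are given beside the share of the 16478 tested genes past them. Because the genes were chosen with these values known, nothing is read from the counts. In PEG-fused against NC PNAs, 4 of 9 genes (Eln, Fbln5, Lox and Loxl2) were past the thresholds with higher counts, beside 4.41% of all tested genes, and 0 with lower counts, beside 7.14%. In PEG-fused PNAs against Unop, 5 (Fbn1, Efemp2, Lox, Loxl1 and Loxl2) were past them with higher counts, beside 16.7%, and 0 with lower counts, beside 15.6%. In NC PNAs against Unop, Loxl1 and Loxl2 were past them with higher counts, beside 19.6%, and Fbln5 with lower counts, beside 19.0%. Without NC 1 or without PEG 2, Lox was no longer past the thresholds in PEG-fused against NC PNAs, nor was Loxl2 when NC 1 and NC 3 were both left out.

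The 9 genes were also sorted by whether the libraries of 2 groups overlapped. Every PEG-fused PNA was above every NC PNA for 7 genes, all but Fbln1 and Fbln2, beside 25.6% of tested genes, and below for 0, beside 23.3%. Against Unop, PEG-fused PNAs were above for 5 genes, beside 37.3%, and below for 3 (Fbln1, Fbln2 and Fbln5), beside 37.2%. NC PNAs were above Unop for 4 genes (Fbn1, Efemp2, Loxl1 and Loxl2), beside 37.2%, and below for 3 (Eln, Fbln2 and Fbln5), beside 37.4%. The median log2 fold change of the 9 genes was 0.89 in PEG-fused over NC PNAs, 1.10 in PEG-fused PNAs over Unop and 0.46 in NC PNAs over Unop, where the medians of all tested genes were 0.0017, 0.013 and 0.022. These 3 comparisons share libraries, so their values are given side by side only.

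**Figure D3:**
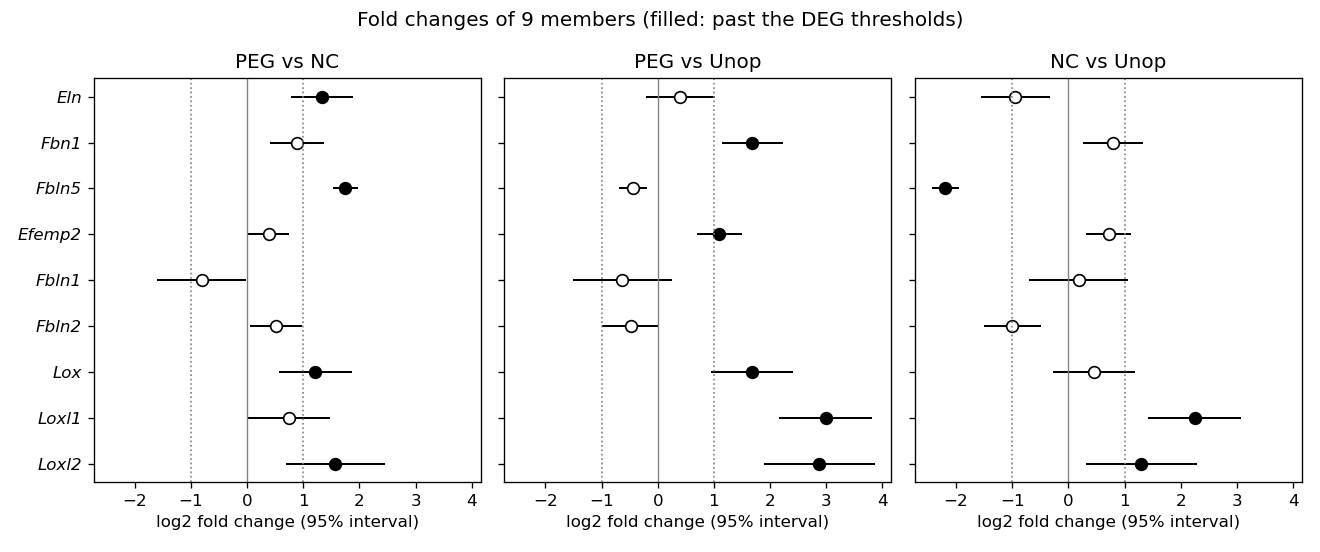
Log2 fold change of 9 genes (horizontal axis) in the 3 comparisons, with 95% intervals from limma as bars. Filled circles are past the DEG thresholds, dotted lines mark -1 and 1. Fbln1 is the 1 gene left of 0 in PEG vs NC, Fbln1, Fbln2 and Fbln5 are left of 0 in PEG vs Unop, and Eln, Fbln2 and Fbln5 are left of 0 in NC vs Unop.

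Because fibroblast markers were themselves higher in PEG-fused than in NC PNAs (2 of the 8 were DEGs, 0 lower), each gene was also set per 1000 counts of that marker list in the same library, a scale chosen after the data were seen. Lum had the largest count of the 8 in every library, so the scale follows Lum most. Its counts were 65317, 74178 and 55042 in PEG-fused PNAs and 29282, 44023 and 52507 in NC PNAs. Dpp4 overlapped, with counts between 1937 and 2412 in PEG-fused PNAs and 2101 and 2659 in NC PNAs. In Unop its counts were higher, 6337 and 4291. Against Unop, 3 of the 8 markers were called higher and 1 lower in PEG-fused PNAs, so the list did not move as 1. On the marker scale, 3 of 9 genes had every PEG-fused PNA above every NC PNA (Fbln5, Lox and Loxl2), 2 had every one below (Fbln1 and Efemp2) and 4 overlapped, among them Eln. Of all tested genes on this scale, 2.8% had every PEG-fused PNA above every NC PNA and 58.1% had every one below. Fbln5 lay between 21.5 and 24.9 per 1000 in PEG-fused PNAs, 8.89 and 13.9 in NC PNAs, and 54.6 and 72.0 in Unop. Lox lay between 58.9 and 87.5 in PEG-fused PNAs, 42.7 and 56.1 in NC PNAs, and 44.1 and 49.4 in Unop. Eln lay between 27.7 and 54.3 in PEG-fused PNAs, 15.4 and 34.0 in NC PNAs, and 54.7 and 60.8 in Unop. Both kinds of PNA were thus below Unop, PEG-fused PNAs by a narrow gap (54.3 against 54.7). Of all tested genes on this scale, 69.1% had every PEG-fused PNA below Unop and 38.1% had every NC PNA below it. Fbln1 lay between 11.3 and 17.6 in PEG-fused PNAs and 26.0 and 67.9 in NC PNAs.

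Related genes were then examined in 6 lists of elastic fibre assembly, lysyl oxidase activation, fibrillar collagens, elastin degradation, elastin receptors and regulators. Of 82 listed symbols, 76 could be tested, 3 did not pass the filter on low counts and 3 were not found. None of the 76 is among the 10 above. In PEG-fused against NC PNAs, 9 of the 76 were called higher and 1 lower, beside 4.41% and 7.14% of all tested genes. In PEG-fused PNAs against Unop 36 were higher and 8 lower, beside 16.7% and 15.6%, and in NC PNAs against Unop 21 were higher and 14 lower, beside 19.6% and 19.0%. Without NC 1 or without PEG 2, the 10 calls between the 2 kinds of PNA fell to 5. The median log2 fold changes of the 76 were 0.58, 0.98 and 0.52. The shares of all tested genes given here apply to the counts of each list below.

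Among 22 tested microfibril and assembly genes, 1 rose in PEG-fused over NC PNAs, Fbn2, the fibrillin of developing tissue. Its counts were 1490, 1798 and 1899 in PEG-fused PNAs, 537, 311 and 438 in NC PNAs, and 155 and 125 in Unop. The log2 fold change was 2.04 (SE 0.20, adjusted p = 0.000652 by limma) over NC PNAs and 3.62 (SE 0.23, adjusted p = 6.56e-06) over Unop. Fbn2 was thus ordered as Fbn1 was, with larger fold changes. Against Unop, 9 of the 22 rose and 2 fell in PEG-fused PNAs, beside 16.7% and 15.6% of all tested genes. In NC PNAs 6 rose and 5 fell, beside 19.6% and 19.0%. Besides Fbn2, Vcan, which encodes the proteoglycan versican, had the smallest adjusted p among the genes that rose in PEG-fused PNAs over Unop (log2 fold change 2.50, adjusted p = 1.29e-05), and Dcn (decorin, -1.23, adjusted p = 0.000612) and Adamtsl2 (-2.23, adjusted p = 0.00821, not called without Unop 2) fell. Ltbp2, a microfibril protein that binds Fbln5, rose by a log2 fold change of 4.22 (adjusted p = 7.05e-06) in NC PNAs over Unop and of 3.93 (adjusted p = 1.56e-05) in PEG-fused PNAs over Unop, and Vcan also rose in NC PNAs (1.98, adjusted p = 2.92e-05).

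Of the microfibril-associated glycoproteins, Mfap5 had a mean of 8377 ± 483 (PEG, SD, n = 3), 4982 ± 591 (NC, SD, n = 3) and 16213 ± 2779 (Unop, SD, n = 2). Mfap5 (-1.70, adjusted p = 1.53e-05) and Efemp1, or fibulin-3 (-1.65, adjusted p = 1.65e-05), fell in NC PNAs against Unop by limma. Both were ordered Unop, PEG, NC, as Fbln5 was, and neither passed the fold threshold in PEG-fused over NC PNAs (0.76 and 0.68). Mfap2 was ordered as Fbn1 was, with log2 fold changes of 0.63 over NC PNAs (adjusted p = 0.0600) and 1.62 over Unop (adjusted p = 0.000589) in PEG-fused PNAs. Fbln7 had log2 fold changes of 0.89 over NC PNAs, where it missed the fold threshold, and 1.75 over Unop (adjusted p = 0.000827).

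Of 11 tested genes of lysyl oxidase activation and copper supply, 0 were called by limma between PEG-fused and NC PNAs, and also 0 by edgeR and by DESeq2, while 5 had an unadjusted p under 0.05 by limma, all 5 with higher counts in PEG-fused PNAs. Postn, or periostin, a matricellular protein that assists the activation of Lox, rose over Unop by 4.71 in PEG-fused PNAs (adjusted p = 5.5e-05) and 3.98 in NC PNAs (adjusted p = 0.000101) on the log2 scale. Slc31a1, which takes up copper, rose in PEG-fused PNAs over Unop (1.22, adjusted p = 0.00011). Fmod (fibromodulin, a collagen-binding proteoglycan) and Tll1, a protease of the Bmp1 family that cleaves the Lox precursor, fell in both kinds of PNA against Unop, with log2 fold changes of -3.35 and -3.84 for Fmod and -2.46 and -2.30 for Tll1 in PEG-fused and NC PNAs. Bmp1 itself did not fall in PEG-fused PNAs, where its counts of 4060, 7242 and 4770 were above every other library. They were 2667, 2493 and 3066 in NC PNAs and 2652 and 2752 in Unop. With all libraries, limma called Bmp1 in no comparison. It was called higher in PEG-fused than in NC PNAs without PEG 1 or without NC 3. Over Unop it was called higher by edgeR with TMM scaling (log2 fold change 1.005), but not by edgeR with median-of-ratios scaling or by DESeq2. Limma called it higher over Unop without PEG 1 or without PEG 3.

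Fibrillar collagens, the other substrate of lysyl oxidases, were the list with the most calls between the 2 kinds of PNA. Of the 9, 5 were higher in PEG-fused PNAs and 0 lower, beside 4.41% and 7.14% of all tested genes. Col11a1 (log2 fold change 1.95, adjusted p = 0.000986 by limma) and Col5a2 (1.04, adjusted p = 0.0079) had the smallest adjusted p, and Col5a1, Col5a3 and Col1a1 were the other 3, the last with an adjusted p of 0.0499. Col11a1 kept its call as each library was left out. Without PEG 2, NC 1 or NC 2, none of the other 4 was called, and Col1a1 and Col5a3 were also lost without PEG 3 or NC 3, Col5a1 without PEG 3 and Col5a3 without either Unop nerve. In PEG-fused PNAs against Unop, 4 of the 9 rose, with Col5a1 (1.46, adjusted p = 0.00387) and Col5a2 (1.07, adjusted p = 0.00416, not called without PEG 2) ahead, and Col2a1, a cartilage collagen to which DESeq2 gave no p, fell (-6.24, adjusted p = 0.00891, not called without Unop 2). In NC PNAs against Unop, 0 rose by limma, edgeR or DESeq2 (at an unadjusted p under 0.05, 0 by limma, 1 by edgeR and 1 by DESeq2) and 3 fell by limma, Col11a1 (-1.21, adjusted p = 0.00272), Col2a1 (-5.64, adjusted p = 0.0126) and Col5a3. The call of Col11a1 was lost without NC 1, and those of Col2a1 and Col5a3 without either Unop nerve.

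Genes of elastin degradation were the list with the highest median over Unop, 2.09 in PEG-fused and 1.53 in NC PNAs. The list holds the inhibitors Timp1, Timp2 and Timp3 as well as proteases. Of 14 tested, 10 rose and 1 fell in PEG-fused PNAs, beside 16.7% and 15.6% of all tested genes. In NC PNAs 9 rose and 2 fell, beside 19.6% and 19.0%. Ctss (cathepsin S, an elastase of macrophages) rose by 3.13 (adjusted p = 2.42e-05 by limma) and 3.57 (adjusted p = 8.11e-06), and Ctsb (cathepsin B) by 2.46 (adjusted p = 2.73e-05) and 1.70 (adjusted p = 0.000149) in PEG-fused and NC PNAs. The inhibitor Timp3 fell, with log2 fold changes of -1.80 (adjusted p = 1.11e-05) and -2.09 (adjusted p = 3.53e-06), and so did Timp2 in NC PNAs (-1.19, adjusted p = 4.29e-05). The inhibitor Timp1 went the other way, with counts from 9923 to 14278 in PEG-fused PNAs, 9268 to 16567 in NC PNAs, and 6957 and 5391 in Unop. Limma called Timp1 in neither kind of PNA, but DESeq2 (1.02, adjusted p = 0.000213) and edgeR called it higher in NC PNAs. Between the 2 kinds of PNA, Ctsl, or cathepsin L, was the 1 gene past the thresholds by limma (1.26 higher in PEG-fused PNAs, adjusted p = 0.0021). Cela1, a pancreatic-type elastase, was 1.73 higher in PEG-fused PNAs with an adjusted p of 0.0534 by limma, and it was called by edgeR (adjusted p = 0.0105) and DESeq2 (adjusted p = 6.68e-09). Macrophage markers (5 of 5 found) summed to between 44685 and 50144 in PEG-fused PNAs, 59089 and 66991 in NC PNAs, and 9438 and 12181 in Unop. Within this list, Cd68 was higher in PEG-fused PNAs (20030, 20455 and 22451) than in NC PNAs (14060, 18968 and 16383). Aif1, Csf1r, Adgre1 and Cd163 were lower in every PEG-fused PNA than in every NC PNA.

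Of 9 genes of the elastin receptor and of cell binding, Itgav, an integrin subunit, was the 1 gene called between the 2 kinds of PNA (1.08 higher in PEG-fused PNAs, adjusted p = 0.00315 by limma), and it was not called without NC 1 or PEG 2. Glb1, whose splice variant is the elastin-binding subunit of the receptor, rose over Unop by 1.72 (adjusted p = 5.88e-06) in PEG-fused and 1.40 (adjusted p = 9.83e-06) in NC PNAs. Neu1, another subunit of that receptor, rose by 1.35 (adjusted p = 0.000138) in PEG-fused and 1.43 (adjusted p = 7.11e-05) in NC PNAs. Ctsa, its remaining subunit, rose in PEG-fused PNAs (1.38, adjusted p = 6.13e-05) and was 0.98 higher in NC PNAs (adjusted p = 0.000302), under the fold threshold. Counts per gene do not separate the splice variant of Glb1 from the lysosomal enzyme. Itga8 fell in NC PNAs against Unop (-1.77, adjusted p = 0.000604). In PEG-fused PNAs it stood at -1.002 (adjusted p = 0.0138), a call lost by edgeR (-0.96) and DESeq2 (-0.98), and without PEG 1, PEG 2 or either Unop nerve.

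Of 11 tested TGF-beta genes and regulators, Tgfb3, a ligand that induces elastin and Lox, rose in PEG-fused over NC PNAs (1.22, adjusted p = 0.0114 by limma), and Il1b, an inflammatory cytokine known to lower elastin transcription, fell (-2.89, adjusted p = 0.00148). The counts of Il1b were 651, 219 and 304 in PEG-fused PNAs, 2071, 3560 and 2405 in NC PNAs, and 83.7 and 85.1 in Unop. The other TGF-beta ligands were not called between the 2 kinds of PNA and lay on opposite sides. Tgfb1 was lower in every PEG-fused PNA (2158, 2075 and 2073) than in NC PNAs (2708, 3093 and 2442). Tgfb2 was higher (535, 905 and 532 against 486, 351 and 421). Tgfb1 and its receptor Tgfbr1 rose over Unop in both kinds of PNA, Tgfb1 by 2.01 and 2.39 and Tgfbr1 by 3.00 and 2.27 in PEG-fused and NC PNAs, while Fgf2 fell, with log2 fold changes of -1.42 and -2.32, the former not called when any PEG-fused PNA or Unop nerve was left out.

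**Figure D4:**
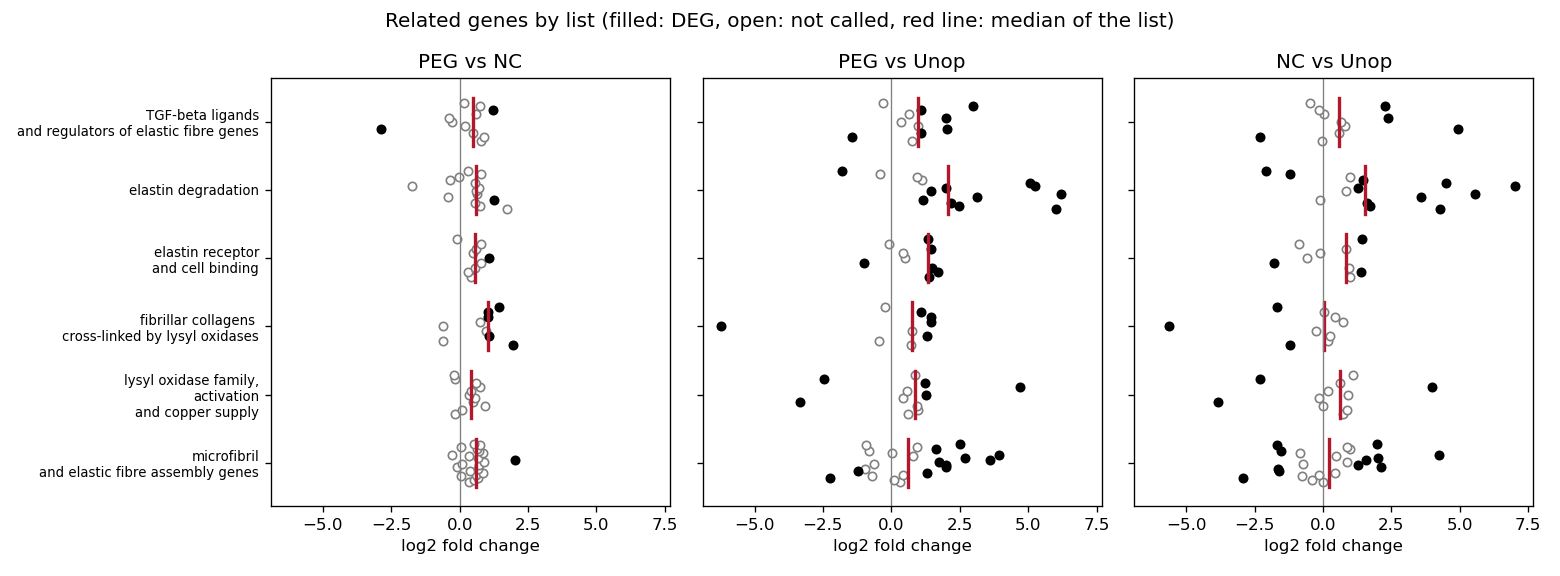
Log2 fold change (horizontal axis) of the 76 tested related genes in 6 lists (rows) for the 3 comparisons. Filled circles are DEGs, open circles are not, and the red line is the median of a list. Fibrillar collagens have their median at 1.04 in PEG vs NC and 0.036 in NC vs Unop, and elastin degradation genes lie furthest right against Unop, with medians of 2.09 and 1.53.

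The genes most like Eln and Lox were listed by Pearson's r of log2(normalized read count + 1) over the 8 libraries, which fall into 3 groups. For Eln they were Tmem120a (0.964), Yipf3 (0.957), Dusp9 (0.956), Dhrs3 (0.954) and AABR07036855.1 (0.953), none of them a member or a related gene. For Lox they were the gene ENSRNOG00000029912 (0.994), whose symbol reads as a date in the deposited table, and Ptk7 (0.990), Bgn (0.986), Fkbp10 (0.984) and Slc17a5 (0.979). Bgn, or biglycan, is a proteoglycan of the assembly list.

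Among the members, r over the 8 libraries was 0.99 for Fbn1 with Loxl2, 0.97 for Fbn1 with Lox and 0.95 for Efemp2 with Loxl1, but 0.00024 for Fbn1 with Fbln5 and -0.33 for Fbln5 with Loxl1. Within the 6 PNAs alone, Fbn1 with Fbln5 had an r of 0.89 and Fbln5 with Loxl1 of 0.89. Eln was closest to Fbln2 and Fbln5 over the 8 libraries, with r of 0.57 and 0.81. The points share the group differences given above, so these values describe the order of the groups.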

How the data were processed

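Per the labels and the methods, total RNA was the input, and the libraries made from it were stranded and enriched for poly-A mRNA. Their paired-end reads were aligned to Rnor 6.0 with TopHat2 and counted per gene with HTSeq, whose strand setting is not given in the sources used here. The deposited values (signal) are counts that the authors divided by DESeq2 size factors. Division by a constant per library gave whole reads for 100% of values within 0.001, with size factors of 0.800 to 1.12. The files of the authors' own comparisons hold means, fold changes, errors, Wald statistics and p-values, and were not used.

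A gene entered the test with a normalized count of 10 or more in 2 libraries or more, which left 16478 of 32545. The planned count test became limma 3.58.1 (trend) on log2(normalized count + 1), because the values are normalized. All 8 libraries entered 1 fit of group means (prior degrees of freedom 3.27), with Benjamini-Hochberg adjustment over the tested genes. Fold changes on this scale understate changes of low counts. Replicates are separate animals. The limma step was tested on simulated data. Alternatives were edgeR 4.0.16 and DESeq2 1.42.0 on recovered reads, TMM rescaling, other filters and pseudocounts, 2 groups only, a replicate block and leaving libraries out.

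The members and the lists of related genes and markers were chosen with earlier results of these data known. Named genes are the 10 members, Loxl3, Loxl4, Fbn2, Fbln7, Efemp1, Mfap2 and Mfap5, the 2 called genes of smallest adjusted p per list, direction and comparison, and the 5 genes most like Eln and Lox. Col5a3, Col1a1 and Cela1, outside this rule for PEG-fused against NC PNAs, were named after their values were seen. So were Bmp1 and the marker genes named above, among them Sox10 and S100b. R 4.3.3, Python 3.11.15 and pandas 2.3.3 were used. Some genes of the marker lists are not reported here.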

Additional observations from a re-analysis of the deposited data

How the results depend on the processing

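All 3 counts of DEGs stayed within 1.5 times under every alternative of normalization, tool, filter, pseudocount, group and library. Without a fold change threshold, an alternative chosen after seeing the data, DEGs numbered 4763 in PEG-fused against NC PNAs (1903 with it), 9513 against Unop (5326) and 10627 in NC PNAs against Unop (6359). Related genes called then numbered 33 in PEG-fused against NC PNAs (10 with it) and 53 in NC PNAs against Unop (35), and members past the threshold in NC PNAs against Unop 7 (3 with it). With each library left out in turn, related genes called in PEG-fused against NC PNAs ranged from 5 to 13, with 5 without NC 1 or PEG 2 and 6 without NC 2.

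Replicate numbers are shared between groups, but the animals differ and the labels give no pairing. Deviations of PEG 3 and NC 3 from their group means had an r of -0.050. The r was 0.108 and 0.109 for the other 2 pairs of PNAs, and 0.136 to 0.157 for the 4 pairs with Unop. With groups of 2 or 3 libraries these values cannot decide whether the numbers pair libraries, and the main fit assumed no pairing. With the number as a replicate block, DEGs numbered 1844 in PEG-fused against NC PNAs, 5193 against Unop and 6213 in NC PNAs against Unop. Fbln2 then passed the thresholds in NC PNAs against Unop and Loxl2 no longer did.

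Of 486 alternative values of member log2 fold changes, 480 moved by less than the residual SD and 6 by more, Loxl1 against Unop and Fbln1 without NC 1 and NC 3, where a single NC library is assumed to vary as the other groups do. None of a member past the thresholds changed sign, and 2 others did. Many of the 486 values could not move. The log2 fold change of a gene does not depend on the filter, on fitting 2 groups only, or on a library outside the comparison. In PEG-fused against NC PNAs the replicate block also left it unchanged. The count of 480 is therefore no measure of robustness. Other calls that rested on a library were Fbn1 in PEG-fused against NC PNAs (past the thresholds without NC 3 or PEG 1), Fbln1 there (without NC 1), Efemp2 in PEG-fused PNAs against Unop (not without Unop 2), and in NC PNAs against Unop Eln (without NC 1, NC 2 or Unop 2), Fbln2 (without NC 3 or Unop 1) and Loxl2 (not without NC 3, Unop 1 or Unop 2). At this depth only Mfap4 was limited by counts, and Unop rests on 2 nerves.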
